A study of Oncorhynchus mykiss with 43 samples.

Results

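The late and the early phase of muscle recovery growth were set side by side by comparing fast muscle of rainbow trout refed for 36 days (9 fish) with that of trout refed for 4 days (9 fish). All of these trout belonged to a spring strain and had first been deprived of food for about a month, and they were then given more than their normal ration. RNA from the fast-twitch muscle of the back was labelled with 33P, separately for each fish, and hybridised to 1 nylon membrane of trout cDNA clones per fish. The series holds 43 such fish in all, the others being fasted or refed for 7 or 11 days. The water was cooler and the fish were heavier on average at 36 days than at 4 days, and the tanks were under a natural photoperiod. Time refed, water temperature, body size and time of year therefore cannot be told apart. Values are normalized intensities, the signal of a clone divided by that of a vector oligonucleotide on the same spot and by the median of the array. Clones were compared if 5 or more fish of both groups gave a value above 0, which held for 1778 of the 9023 clones on the membrane (19.7%). For 870 of these no fish of the 18 lacked a value.

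When a fasted fish is fed again, protein synthesis in its muscle rises relative to breakdown. Ribosomes are assembled in the nucleolus, messenger RNA is spliced and exported, initiation factors load it onto ribosomes, and chaperones fold the product. Protein is laid down as sarcomeres, the contractile units of actin and myosin. The sarcoplasmic reticulum and the Golgi apparatus supply calcium handling, membranes and glycosylated proteins. Protein breakdown, which runs through the ubiquitin-proteasome system and the lysosomes, is the opposing process and is active during fasting.

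Trout muscle at 36 days differed from that at 4 days in both directions: 342 clones were higher (19.2% of those tested) and 329 were lower (18.5%) at an adjusted p under 0.05. The stricter limit of 0.0001 left 32 higher (1.80%) and 38 lower clones (2.14%), 70 in all (3.94%). Differences were modest, with a median log2 difference of 0.46 among the higher and -0.38 among the lower clones, no clone higher by more than a log2 of 1 and 5 lower by more than that. The median over all 1778 clones was -0.07, and quantile normalization of whole arrays moved it to -0.23, at which 92 clones were higher and 450 lower. Differences in log2 level were tested with limma, in 1 fit over the 43 fish unless a fish was left out. P-values were adjusted by Benjamini and Hochberg over the clones tested, 1778 in the main fit and fewer where a fish was left out. The number of clones with a value was 1441 to 2268 per array at 36 days (median 2133) and 1566 to 2497 at 4 days (median 2372). The means differed by -213, which did not pass (two-sided exact permutation test, p = 0.175), but this does not exclude a difference. Fish 3 of the 36-day group stood furthest from its group, with a correlation of 0.902 to the mean of the other 8 fish over the 870 clones, against 0.935 to 0.981 for the others at 36 days and 0.959 to 0.986 at 4 days. Without it 291 clones were higher and 295 lower, of the 1697 clones that could then be tested. Precision is set by the number of fish, 1 array each, and in whole tissue fewer cells of a type and less RNA per cell cannot be told apart.

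Genes were named from clone labels in the figures of the study, since the value table lists clone names alone. Those clones were picked by the study because they differed among these same fish, so the direction of a list is not independent evidence. Of 290 named clones found in the table, 121 could be tested, 98 had too few values and 71 had none in the 18 fish. By list the tested clones were 13 of 43 for RNA synthesis and processing, 2 of 15 for ribosome biogenesis, 2 of 11 for ribosomal proteins, 12 of 25 for translation, 15 of 24 for chaperones, 17 of 29 for the mitochondrion, 7 of 20 for cell division and chromatin, 18 of 43 for protein degradation, 17 of 27 for sarcomere and cytoskeleton, 6 of 21 for reticulum and Golgi and 12 of 32 for transcriptional regulators. Among the 121, 25 were higher and 42 lower at 36 days, which is 67 against a background of 37.7% of all clones called. Of the defining genes of muscle, skeletal myosin light chain 1, skeletal troponin C, nebulin, triadin and dystrophin could be tested. Skeletal alpha actin could not, as only 4 fish of the 36-day group had a value listed for it, against 9 of the 4-day group. Of the markers of other cells, the myeloid factor Spi-1/PU.1 had no value in any of the 18 fish and apolipoprotein B-100, made by liver, had one in 4 fish at 36 days and 4 fish at 4 days.

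**Figure D1:**
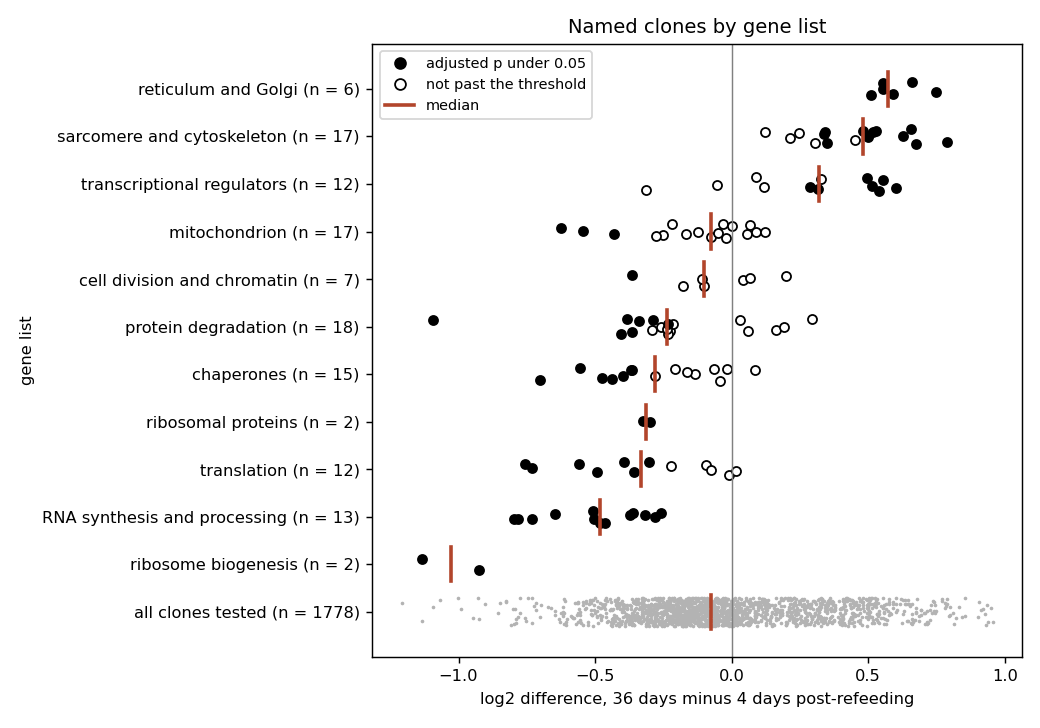
Log2 difference (36 days minus 4 days post-refeeding, horizontal axis) of each tested clone by gene list (vertical axis). Filled points passed an adjusted p of 0.05, open points did not, grey dots are all 1778 clones, jitter is only vertical, and red lines are medians, which ran from -1.03 for ribosome biogenesis to 0.57 for reticulum and Golgi.

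Every tested clone for RNA synthesis and processing was lower at 36 days, 13 of 13, against 18.5% of all clones. The median log2 difference was -0.48 against -0.07 over all clones. U2AF 35 kDa subunit, which recognises the 3' splice site, had values of 0.901 to 1.34 in 7 fish at 36 days (median 1.07) and of 1.31 to 2.33 in 9 fish at 4 days (median 1.96), a log2 difference of -0.80 ± 0.12 (SE, adjusted p = 2.73e-06). These ranges touched, since fish 7 of the 4-day group lay below fish 3 of the 36-day group. Splicing factor, arginine/serine-rich 2, an SR protein that promotes the use of exons, lay at 1.20 to 1.64 (median 1.46) in the 5 fish with a value at 36 days and at 2.17 to 2.73 (median 2.50) in 9 fish at 4 days, and differed by -0.78 ± 0.12 (SE, adjusted p = 5.28e-06). The groups did not overlap here, as held for 2.53% of all clones in this direction and 5.40% in either. Gem-associated protein 7, a member of the complex that assembles spliceosomal particles, had 1.13 to 1.37 (median 1.23) at 36 days and 1.38 to 2.28 (median 1.97) at 4 days in 9 fish each, again without overlap (log2 difference -0.65 ± 0.10, SE, adjusted p = 6.76e-06).

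Other members of this list bind messenger RNA in the nucleus or the cytoplasm. Fragile X mental retardation syndrome-related protein 2, an RNA-binding protein of the ribosome, had 2.26 to 5.33 (median 4.76) at 36 days and 5.06 to 8.36 (median 7.21) at 4 days, with -0.73 ± 0.12 (SE, adjusted p = 1.84e-05). Fish 3 was the lowest at 36 days, and all 9 fish at 36 days lay below the 4-day mean. Heterogeneous nuclear ribonucleoprotein A0 differed by -0.51 ± 0.12 (SE, adjusted p = 0.00136), with 0.766 to 1.05 in 5 fish at 36 days and 0.972 to 1.76 in 9 fish at 4 days. Components of the spliceosome itself, the small nuclear ribonucleoproteins Sm D2 (-0.46) and E (-0.36) and splicing factor 3A subunit 2 (-0.32), were lower too, as was THO complex subunit 4, which couples splicing to export (-0.26). Polymerase I and transcript release factor, named for its part in ending ribosomal RNA transcription and also a coat protein of caveolae, had a median of 8.53 at 36 days and 10.0 at 4 days (log2 difference -0.28). It lost its call when fish 3 of 36 days or fish 6 of 4 days was left out (adjusted p = 0.0623 and 0.0557 by limma).

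Both tested clones for ribosome biogenesis were lower at 36 days, and one of them, NOP5, had the largest difference of the 121 named clones. Nucleolar protein NOP5, a core protein of the particles that methylate ribosomal RNA, had 1.18 to 2.22 in 7 fish at 36 days (median 1.75) and 2.21 to 5.48 in 9 fish at 4 days (median 3.82), a log2 difference of -1.13 ± 0.15 (SE, adjusted p = 3.16e-07). Only fish 7 of the 4-day group, at 2.21, came down to the level of a fish at 36 days. Fibrillarin, the methyltransferase of the same particles, had 1.12 to 1.62 (median 1.25) in 7 fish at 36 days and 1.87 to 3.13 (median 2.30) in 9 fish at 4 days, without overlap, and differed by -0.92 ± 0.15 (SE, adjusted p = 2.45e-05). Smaller differences were seen for proteins of the finished ribosome. S19 of the cytoplasmic 40S subunit was at 7.02 to 13.5 (median 12.6) at 36 days and 13.2 to 16.7 (median 13.9) at 4 days, with -0.32 ± 0.09 (SE, adjusted p = 0.00626), and L11 of the mitochondrial 39S subunit differed by -0.30 ± 0.09 (SE, adjusted p = 0.00723).

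The translation list, which holds tRNA synthetases beside translation factors, was lower at 36 days for 7 of 12 clones (18.5% of all clones). It was higher for none (median log2 difference -0.33). Subunit 12 of initiation factor eIF3, the scaffold on the small ribosomal subunit, had 1.33 to 1.56 (median 1.40) in 5 fish at 36 days and 2.09 to 2.83 (median 2.28) in 9 fish at 4 days, a difference of -0.76 ± 0.10 (SE, adjusted p = 3.16e-07). Subunit 4 of the same factor differed by -0.56 ± 0.09 (SE, adjusted p = 1.49e-05). eIF5, which triggers GTP hydrolysis at the start codon, had 1.41 to 2.07 (median 1.55) in 8 fish at 36 days and 2.27 to 2.86 (median 2.70) in 9 fish at 4 days, with -0.73 ± 0.08 (SE, adjusted p = 2.28e-08). For subunit 12 and for eIF5 the groups did not overlap, although fish 10 at 36 days stood above the other 36-day fish for eIF5. Subunit 1 of eIF2, which brings the initiator tRNA and is the site of control by stress kinases, differed by -0.49 ± 0.12 (SE, adjusted p = 0.00140). Elongation factor 1-alpha, which delivers aminoacyl-tRNA, was tested by a clone labelled as its oocyte form. That clone differed by -0.39 ± 0.14 (SE, adjusted p = 0.0246). It did not pass without fish 3 of 36 days (log2 difference -0.26, adjusted p = 0.121 by limma) or without fish 10 of 4 days (-0.34, adjusted p = 0.0538). The remaining lower clones were isoleucyl-tRNA synthetase (-0.36) and the scaffold eIF4G1 (-0.30). The tRNA synthetases for asparagine, arginine and glutamine lay at -0.09, -0.08 and -0.01 and did not pass the test. Initiation factor eIF1A (mean 1.55 at 36 days and 1.52 at 4 days) and density-regulated protein (0.896 and 1.04) did not pass either.

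**Figure D2:**
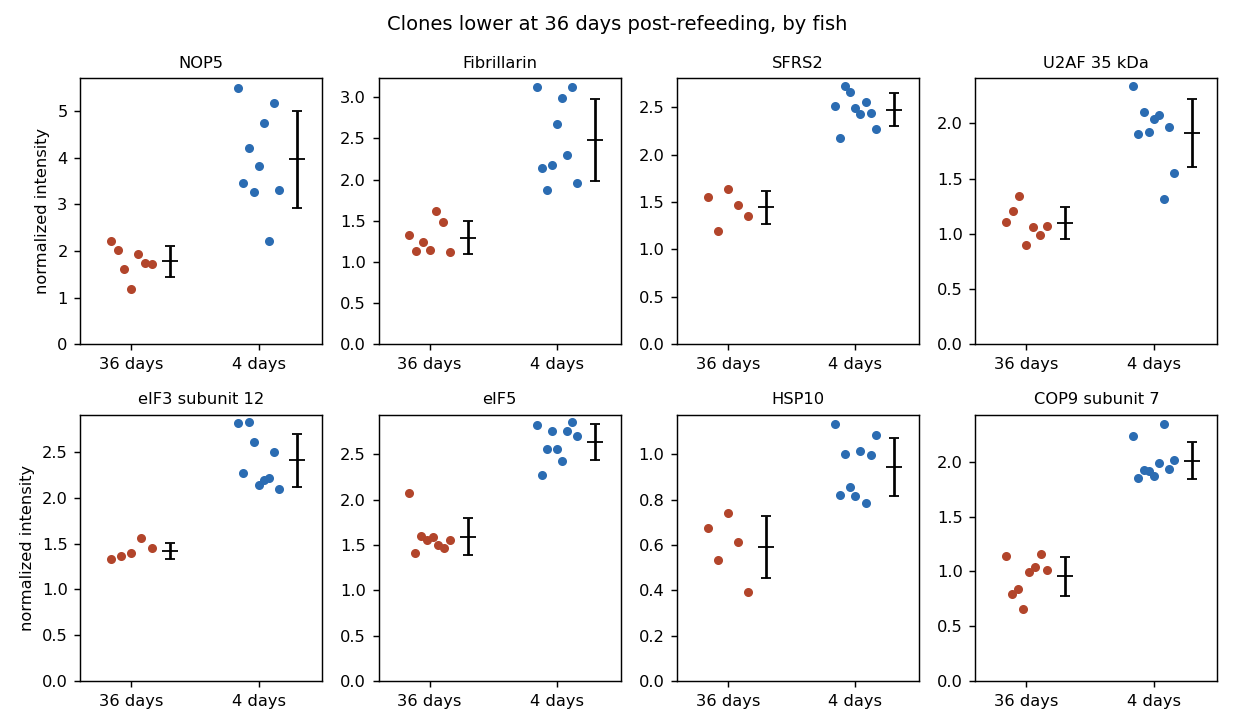
Normalized intensity (vertical axes, from 0) of 8 clones that were lower at 36 days, each point 1 fish with a value, with 36 days in red on the left and 4 days in blue on the right. Bars give the mean and SD, and SFRS2 is splicing factor, arginine/serine-rich 2; NOP5 and the U2AF 35 kDa subunit are the 2 clones whose groups overlap.

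Chaperones followed in the same direction for 7 of 15 clones (18.5% of all clones), with a median log2 difference of -0.28 and no clone higher. Among the chaperones of the mitochondrion, the 10 kDa heat shock protein, lid of the folding chamber there, had 0.392 to 0.742 (median 0.612) in 5 fish at 36 days and 0.786 to 1.14 (median 0.998) in 9 fish at 4 days, with no overlap (log2 difference -0.70 ± 0.15, SE, adjusted p = 0.000452). The T-complex protein 1 ring, which folds actin and tubulin in the cytosol, was represented by 7 clones for 6 subunits. Its beta subunit had 1.58 to 2.31 (median 2.04) at 36 days and 2.40 to 3.47 (median 2.81) at 4 days, in 8 and 9 fish (log2 difference -0.47 ± 0.11, SE, adjusted p = 0.00127), and gamma differed by -0.37. Clones of the theta subunit disagreed in size, 1 at -0.55 ± 0.13 (SE, adjusted p = 0.00115) and the other at -0.16 (adjusted p = 0.154), and the epsilon, alpha and zeta subunits lay at -0.21, -0.07 and -0.02 without passing. A probable heat shock protein ssa1, of the Hsp70 family, was lower by the test at -0.44 ± 0.11 (SE, adjusted p = 0.00331). Peptidyl-prolyl cis-trans isomerase E (-0.40) and FK506-binding protein 1A (-0.37), enzymes that turn proline bonds, were lower as well. HSP90-alpha, a chaperone of myosin in fish muscle, had 10.9 to 27.7 at 36 days (median 17.8) and 19.2 to 22.8 at 4 days (median 20.0). Its difference of -0.28 did not pass (adjusted p = 0.113), although without fish 7 of 36 days it was -0.37 and did (adjusted p = 0.0279 by limma).

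Of 17 mitochondrial clones 3 were lower and none higher at 36 days, a share near the 18.5% of all clones that were lower, and the median of the list was the same as that over all clones at -0.07. Those 3 were respiratory chain genes. NADH-ubiquinone oxidoreductase chains 1 and 2, complex I subunits encoded by mitochondrial DNA, differed by -0.62 ± 0.14 (SE, adjusted p = 0.000506) and -0.54 ± 0.14 (SE, adjusted p = 0.00257). For chain 1 the range was 1.62 to 3.98 (median 3.15) at 36 days and 3.77 to 5.22 (median 4.79) at 4 days, with all 9 fish at 36 days below the 4-day mean. Cytochrome c, which carries electrons to complex IV, differed by -0.43 (adjusted p = 0.0349), a call that was lost on leaving out any of 8 fish (adjusted p = 0.0547 to 0.0885 by limma). NADH-ubiquinone oxidoreductase chain 4 and cytochrome c oxidase subunit 3, from the same genome, lay at -0.25 and -0.12 and did not pass, and ATP synthase alpha, beta and gamma chains lay between -0.22 and 0.12. Of the cell division and chromatin list only chromobox protein homolog 3, a heterochromatin protein, was lower (-0.37 ± 0.09, SE, adjusted p = 0.00312), 1 of 7 clones. Cyclin D2, which drives entry into S phase, had 5.27 to 8.22 (median 5.93) at 36 days and 5.14 to 8.40 (median 6.90) at 4 days, at a difference of -0.18 that did not pass (adjusted p = 0.174).

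Protein degradation genes were lower at 36 days for 7 of 18 clones (18.5% of all clones) and higher for none, with a median of -0.24. COP9 signalosome complex subunit 7, part of the complex that regulates cullin ubiquitin ligases, had 0.655 to 1.16 (median 1.01) in 8 fish at 36 days and 1.86 to 2.34 (median 1.93) in 9 fish at 4 days, the largest difference of the list at -1.10 ± 0.12 (SE, adjusted p = 4.72e-09). The groups were far apart, while subunit 8 of the same complex lay at -0.24 (adjusted p = 0.160). Of the proteasome, alpha type 5 of the core had 2.50 to 4.05 (median 3.05) at 36 days and 3.48 to 4.91 (median 3.96) at 4 days (log2 difference -0.34 ± 0.09, SE, adjusted p = 0.00475), and activator complex subunit 2 differed by -0.36 ± 0.11 (SE, adjusted p = 0.00818). Both clones of regulatory subunit 4, an ATPase of the cap, were lower, at -0.40 (adjusted p = 0.0331) and -0.29 (adjusted p = 0.0444). Neither of these passed without fish 3 of 36 days, at adjusted p = 0.171 and 0.0849 by limma, and leaving out 5 other fish for the first clone or 7 others for the second also ended the call. Cathepsin D, an aspartic protease of the lysosome, had 1.72 to 2.92 (median 2.14) at 36 days and 2.12 to 3.84 (median 2.91) at 4 days, and differed by -0.38 ± 0.13 (SE, adjusted p = 0.0193). The ubiquitin ligase Itchy differed by -0.23 (adjusted p = 0.0145). Ubiquitin itself lay the other way, with 5.16 to 13.1 (median 10.7) at 36 days and 5.52 to 10.3 (median 8.25) at 4 days, and its difference of 0.30 did not pass (adjusted p = 0.0840), although without fish 3 of 36 days it was 0.42 and did (adjusted p = 0.00734).

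In the opposite direction stood the genes of the sarcomere and the cytoskeleton. Of 17 clones 12 were higher at 36 days (19.2% of all clones) and none lower, with a median log2 difference of 0.48. The list holds muscle proteins together with cytoskeletal and non-muscle ones. Myosin light polypeptide 4, an essential light chain known in mammals from atrial and embryonic muscle, had 6.45 to 11.7 (median 8.62) at 36 days and 2.79 to 7.66 (median 5.25) at 4 days in 9 fish each, a difference of 0.79 ± 0.14 (SE, adjusted p = 2.82e-05). Fish 5 at 36 days and fish 10 at 4 days were the ones that made the ranges overlap. Dystrophin, which ties the cytoskeleton to the membrane of the fibre, had 5.91 to 8.09 (median 7.26) at 36 days and 3.86 to 5.56 (median 4.48) at 4 days, with no overlap (2.87% of all clones in this direction) and 0.67 ± 0.08 (SE, adjusted p = 2.28e-08). Further light chains were higher: cardiac light chain 1 (0.66 ± 0.14, SE, adjusted p = 0.000533), regulatory light chain 2 (0.53 ± 0.12, SE, adjusted p = 0.000918), skeletal light chain 1 (0.50) and both clones of light polypeptide 6, a light chain of non-muscle and smooth muscle myosin (0.52 and 0.50). For cardiac light chain 1, 8 fish at 36 days lay between 2.71 and 4.15, above all fish at 4 days (1.67 to 2.33), and fish 8 was at 1.82.

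Myosin-10, the label of a non-muscle myosin heavy chain, had 6.99 to 11.1 (median 9.74) at 36 days and 4.56 to 7.24 (median 6.12) at 4 days, with 0.63 ± 0.11 (SE, adjusted p = 2.46e-05). Actin-binding proteins were higher too, namely subunit 3 of the Arp2/3 complex, which nucleates branched filaments (0.48), F-actin capping protein beta, which sits at the Z disc (0.34), and tropomyosin 1 alpha, which lies along the thin filament (0.34). The call for tropomyosin 1 alpha was lost on leaving out any of 8 fish (adjusted p = 0.0640 to 0.102 by limma). Skeletal troponin C, the calcium sensor of the thin filament, was higher by 0.35 for 1 clone (adjusted p = 0.0122) and lay at 0.12 for the other (adjusted p = 0.354). The giant thin filament protein nebulin (0.21), tropomyosin alpha 4 (0.30), cardiac troponin T (0.45) and the M-line protein unc-89 (0.25) did not pass. Leaving out 1 fish brought each of these under the threshold, fish 3 of 36 days for nebulin (adjusted p = 0.0444) and tropomyosin alpha 4 (0.0281), fish 8 of 4 days for troponin T (0.0313) and any of 3 fish for unc-89 (0.0391 to 0.0480, all by limma). After quantile normalization of whole arrays, which lowered the median of all clones, 5 of the 17 clones stayed higher, against 92 of all 1778 clones. The median of the list was then 0.30.

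Genes of the reticulum and the Golgi apparatus were higher at 36 days for 6 of 6 tested clones, against 19.2% of all clones. Their median log2 difference was 0.57. After quantile normalization of whole arrays 5 of 6 were higher, against 92 of all 1778 clones. SEC22b, a SNARE of vesicle traffic between the endoplasmic reticulum and the Golgi, had 4.29 to 8.50 (median 6.64) in 9 fish at 36 days and 2.75 to 4.40 (median 3.79) in 7 fish at 4 days, a difference of 0.75 ± 0.12 (SE, adjusted p = 1.95e-05). Its lowest fish at 36 days fell just below the highest at 4 days. Triadin, which anchors calsequestrin to the calcium release channel of the sarcoplasmic reticulum, had 1.74 to 3.02 (median 2.40) in 7 fish at 36 days and 1.32 to 1.57 (median 1.50) in 5 fish at 4 days, with 0.66 ± 0.11 (SE, adjusted p = 5.95e-05). Oxysterol-binding protein 1, a carrier of sterols to the Golgi, was at 1.92 to 3.01 (median 2.50) in 9 fish at 36 days and 1.63 to 1.83 (median 1.68) in 7 fish at 4 days, with 0.55 ± 0.10 (SE, adjusted p = 3.28e-05). Triadin and oxysterol-binding protein 1 did not overlap between the groups. The other 3 clones code for enzymes that modify proteins or glycans: an alpha-1,3-galactosyltransferase (0.59 ± 0.14, SE, adjusted p = 0.00108), protein-S-isoprenylcysteine O-methyltransferase, which finishes the lipid tail of Ras-like proteins (0.56 ± 0.11, SE, adjusted p = 0.000193), and a beta-1,4 N-acetylgalactosaminyltransferase (0.51 ± 0.13, SE, adjusted p = 0.00261).

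**Figure D3:**
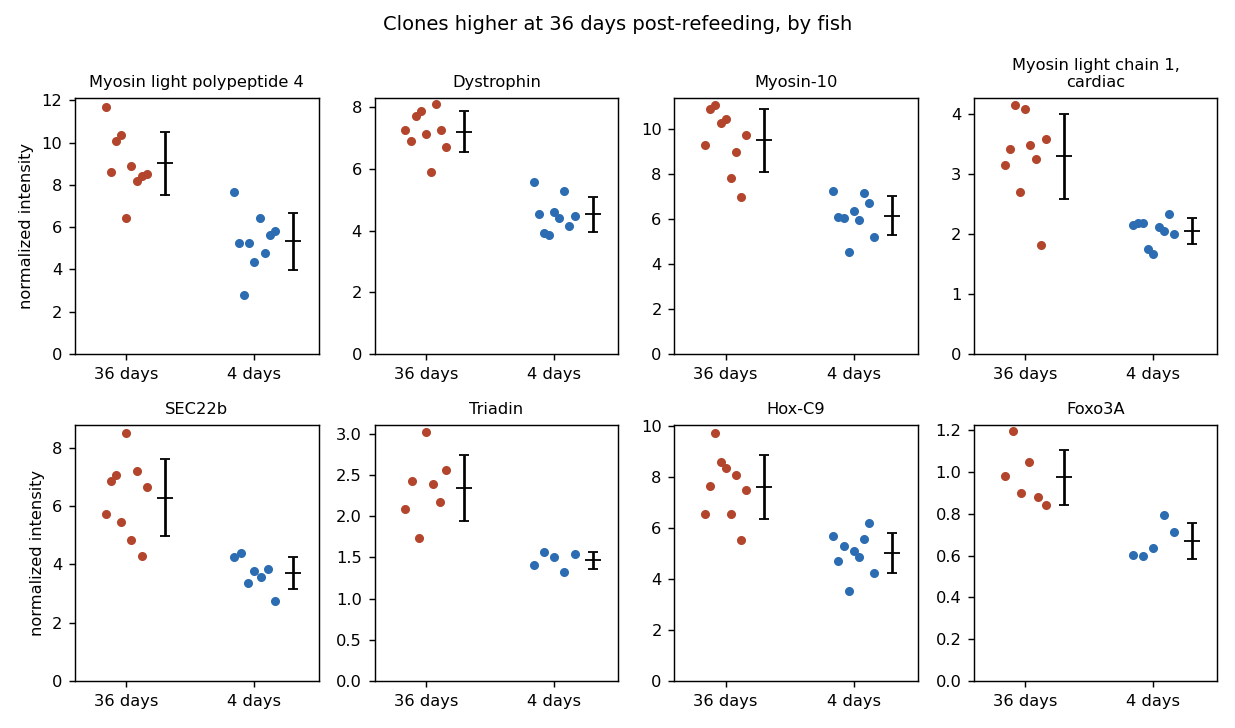
Normalized intensity (vertical axes, from 0) of 8 clones that were higher at 36 days, each point 1 fish with a value, with 36 days in red on the left and 4 days in blue on the right. Bars give the mean and SD; the groups do not overlap for dystrophin, triadin and Foxo3A.

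Transcriptional regulators were higher for 7 of 12 clones (19.2% of all clones) and lower for none, with a median log2 difference of 0.32. Hox-C9, a homeobox factor of the trunk, had 5.55 to 9.75 (median 7.65) at 36 days and 3.54 to 6.19 (median 5.09) at 4 days, with 0.60 ± 0.12 (SE, adjusted p = 0.000259). Homeodomain-only protein, which lacks DNA contacts of its own and acts on muscle differentiation in mammals, was dim, at 0.597 to 0.879 (median 0.692) in 8 fish at 36 days and 0.423 to 0.563 (median 0.462) in 6 fish at 4 days, yet did not overlap (log2 difference 0.56 ± 0.13, SE, adjusted p = 0.00144). Foxo3A, known in mammals as an activator of atrophy genes, had 0.842 to 1.20 (median 0.941) in 6 fish at 36 days and 0.598 to 0.796 (median 0.638) in 5 fish at 4 days, also without overlap (0.54 ± 0.12, SE, adjusted p = 0.000683). Rest corepressor 1, a partner of the repressor of neuronal genes (0.51 ± 0.10, SE, adjusted p = 0.000413), and Twist related protein 2, which in mammals restrains myoblast differentiation (0.50 ± 0.10, SE, adjusted p = 0.000266), were higher as well. LMO4, a LIM-only adaptor (0.29), and SOX-11, an HMG-box factor with a median of 27.1 at 36 days and 20.5 at 4 days (0.31, adjusted p = 0.0427), passed as well, but SOX-11 lost its call on leaving out any of 9 fish (adjusted p = 0.0639 to 0.0901 by limma). ATF-4, a factor of the amino acid response, lay at -0.31 and did not pass (adjusted p = 0.0536), but did on leaving out any of 3 fish (0.00624 to 0.0389 by limma). After quantile normalization of whole arrays 2 of the 12 clones stayed higher, 1 was lower and the median was 0.12. Of all 1778 clones 92 were higher and 450 lower under that normalization.

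The largest difference in each direction belonged to a clone with no gene name. Clone tcbk0057.c.16 had 9.96 to 17.1 (median 11.99) at 36 days and 3.61 to 9.81 (median 6.15) at 4 days, the largest positive difference at a log2 of 0.96 ± 0.31 (SE, adjusted p = 0.0131), and tcba0016.a.14 differed by 0.94 ± 0.19 (SE, adjusted p = 0.000158). Neither overlapped between the groups. Clone 1RT109B14_D_A07 differed by -1.21 ± 0.35 (SE, adjusted p = 0.00785), with 0.580 to 2.78 in 7 fish at 36 days and 1.81 to 3.44 in 5 fish at 4 days. Clone tcac0002.c.01 had 1.06 to 1.85 (median 1.51) in 7 fish at 36 days and 2.76 to 3.52 (median 3.00) in 9 fish at 4 days, with -1.07 ± 0.11 (SE).

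Where the 36-day and 4-day levels lay in relation to fasted muscle differed from list to list. Because both comparisons share the fasted fish, the values are only set side by side. The study picked the named clones by tests against these same fasted fish and grouped them by time course. Counts per list against fasted fish therefore partly restate that choice and are not independent evidence. The mean of NOP5 was 2.09 ± 0.297 in fasted fish (SD, n = 8), then 3.96 ± 1.04, 2.63 ± 0.639, 2.59 ± 0.363 and 1.78 ± 0.333 after 4, 7, 11 and 36 days of feeding. Its log2 difference to fasted fish was -0.24 at 36 days (adjusted p = 0.206) and 0.89 at 4 days (adjusted p = 1.26e-05, both by limma). The U2AF 35 kDa subunit averaged 0.928 in fasted fish, then 1.91, 1.94, 1.84 and 1.09 at these times. In the comparison with fasted fish, 1 of the 13 RNA synthesis and processing clones was higher at 36 days (15.4% of all clones) and 13 at 4 days (7.76% of all clones). Chaperone clones were higher than in fasted fish for 5 of 15 at 36 days (15.4% of all clones) and 12 of 15 at 4 days (7.76% of all clones). HSP90-alpha stood above the fasted level by a log2 of 1.66 at 36 days and 1.94 at 4 days.

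Degradation genes were set against fasted muscle in the same way. The median log2 difference of the 18 clones to fasted fish was -0.46 at 36 days (-0.04 over all clones) and -0.24 at 4 days (-0.02 over all clones). Cathepsin D averaged 3.86 ± 0.672 in fasted fish (SD, n = 8), then 2.99, 2.62, 2.32 and 2.28 at the successive times of refeeding. For COP9 subunit 7 the means were 2.24 in fasted fish and 2.01, 1.71, 1.57 and 0.954 at those times, so that its difference to fasted fish was -1.24 at 36 days (adjusted p = 7.36e-11) and did not pass at 4 days (adjusted p = 0.494, both by limma). Ubiquitin, which was not called between 36 and 4 days, was below fasted fish by -0.81 at 36 days and by -1.11 at 4 days.

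Most sarcomere, cytoskeleton, reticulum and Golgi clones passed the test against fasted fish at 36 days and few did at 4 days. Since the study picked these clones for a late rise in the same fish, this is not independent evidence. Against fasted fish 14 of 17 sarcomere and cytoskeleton clones were higher at 36 days (15.4% of all clones) and 1 at 4 days (7.76% of all clones). The count of 1 in 17 at 4 days was near the share of all clones. Of the 6 reticulum and Golgi clones 6 were higher at 36 days and 1, SEC22b, at 4 days. Dystrophin averaged 4.32 ± 0.537 in fasted fish (SD, n = 7), then 4.53 ± 0.570, 5.33 ± 0.526, 6.16 ± 0.474 and 7.21 ± 0.664 in order of time. Means of SEC22b were 2.41 in fasted fish and then 3.71, 4.77, 6.45 and 6.29, and those of triadin, from 3 to 7 fish a group, were 1.51 and then 1.47, 1.78, 2.09 and 2.35.

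**Figure D4:**
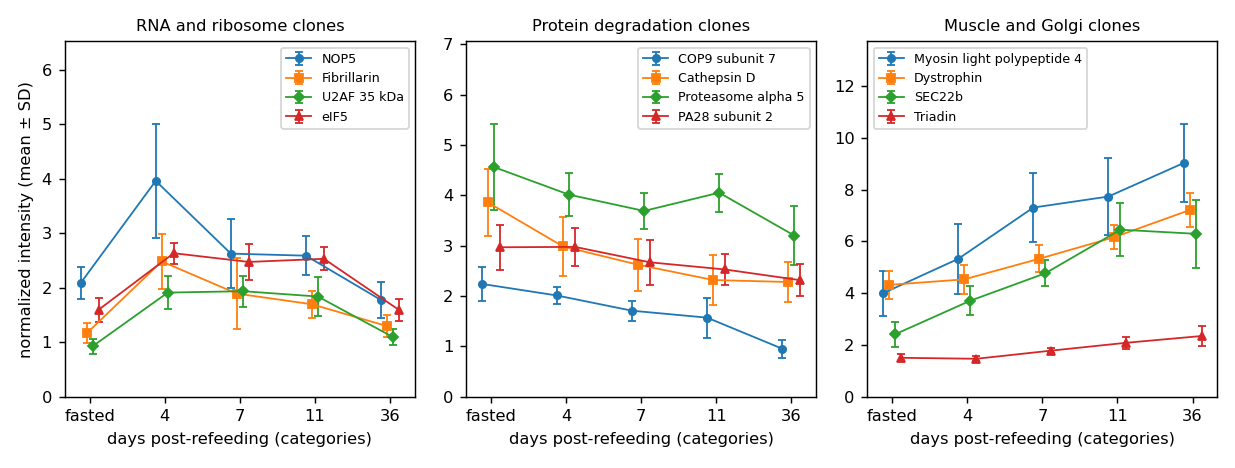
Mean normalized intensity ± SD (vertical axes, from 0) of 12 clones in fasted fish and by days post-refeeding (4, 7, 11, 36), drawn as evenly spaced categories, with points shifted sideways for clarity. Means of the RNA and ribosome clones are highest at 4 or 7 days, those of the degradation clones are lowest at 36 days, and muscle and Golgi clones are higher at 36 days than at 4 days.

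Fish refed for 11 and for 7 days were then compared with each other. Their levels did not enter the difference between 36 and 4 days, but their spread did enter the fit that called the clones. Of the 342 clones higher at 36 than at 4 days, 76.9% were also higher at 11 than at 7 days (median log2 difference 0.09), against 59.1% of all 1778 clones (median 0.02). Of the 329 clones lower at 36 than at 4 days, 45.3% were higher at 11 than at 7 days, with a median of -0.01. Over all clones the 2 differences correlated at r = 0.328, a description across clones that share arrays and are not independent replicates.

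Some named clones for ribosomes and RNA could not be tested because fewer than 5 fish at 36 days had a value, although 5 or more did at 4 days. Of 165 named clones listed in 5 or more fish of either group, 12 had values in more fish at 36 days, 96 in more fish at 4 days and 57 in equally many. Over all 2291 clones compared in this way, 444 had values in more fish at 36 days, 822 in more fish at 4 days and 1025 in equally many. A clone that reached 5 fish in 1 group alone had values in more fish of that group by this rule itself. Brix domain containing protein 1, needed for the large ribosomal subunit, was listed in 2 fish at 36 days and in 9 fish at 4 days. It lay at 1.04 to 1.79 at 4 days, and the 2 fish at 36 days averaged 1.86, above that range. RRP5, which processes ribosomal RNA, was listed in 1 fish at 36 days, at 0.704, and in 8 fish at 4 days, at 0.805 to 1.09. BMS1, a GTPase of small subunit assembly, was listed in 0 fish at 36 days and 6 fish at 4 days. The same counts held for something about silencing protein 10, of the same assembly. All 7 compared clones for ribosome biogenesis had values in more fish at 4 days. That direction was also the more frequent one over all clones. For Brix domain containing protein 1, RRP5, BMS1, something about silencing protein 10 and hypothetical protein MJ1432 the rule had fixed it. Only fibrillarin and NOP5, each with 7 fish at 36 days and 9 at 4 days, could have gone either way. A further clone of eIF5, at 3.02 to 4.51 at 4 days, was listed in 1 fish at 36 days and in 9 fish at 4 days (Fisher's exact test, p = 0.000411, adjusted p = 0.305). This clone too was compared only because of its 4-day fish, so the p-value is not evidence of a difference.

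By Fisher's exact test of each clone, none of 2291 clones passed after adjustment (0 of 2291, lowest adjusted p = 0.0942), while at an unadjusted p under 0.05 26 clones had values in more fish at 36 days (1.13%) and 108 in more fish at 4 days (4.71%), 134 in all (5.85%). The named clones counted 0 and 20 of these. Each of the 134 clones had a value in 5 or more fish of 1 group alone. It was thus admitted to the comparison only through the group with more values. These unadjusted p-values and shares are therefore not evidence of a difference in either direction. An empty cell is not a measured low signal, as the sources used here give no rule for it beyond a weak spot of cDNA. Bright clones were affected too: skeletal alpha actin, the main thin filament protein, was listed in 4 fish at 36 days and in 9 fish at 4 days. In 0 of the fish at 11 days was it listed. Its values lay at 13.3 to 17.1 at 4 days and averaged 20.0 in the 4 fish at 36 days, a difference that was not tested. Clones listed in 5 or more fish of 1 group and in none of the other numbered 8 for 36 days (0.349%) and 42 for 4 days (1.83%).

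**Figure D5:**
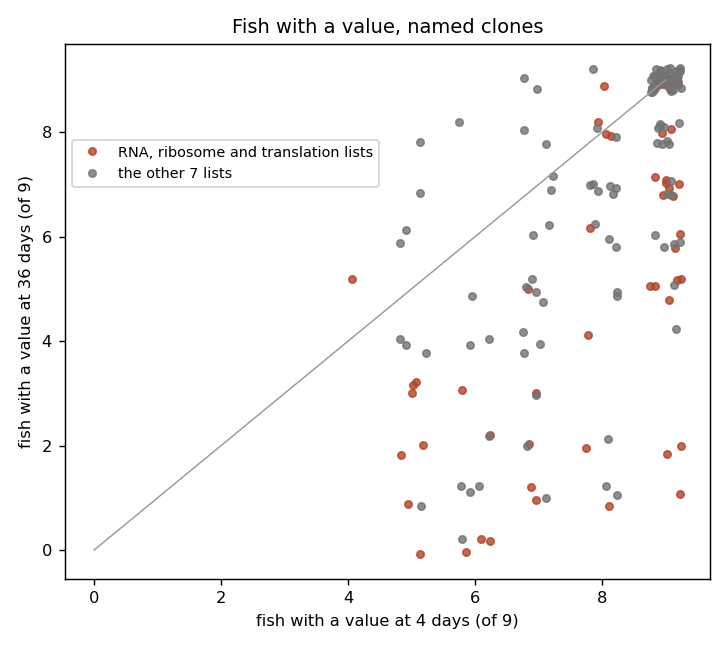
Number of fish with a value at 36 days (vertical axis, of 9) against 4 days (horizontal axis, of 9) for each of 165 named clones, with a small random shift of each point. Points below the line, 96 of them, had values in more fish at 4 days. Most clones of the RNA, ribosome and translation lists were among them. The same held for protein degradation (15 of 22), chaperones (13 of 19), the mitochondrion (11 of 20) and cell division and chromatin (6 of 10). It did not hold for transcriptional regulators (8 of 16), sarcomere and cytoskeleton (2 of 19) or reticulum and Golgi (1 of 7). Over all 2291 clones compared, 822 had values in more fish at 4 days. A clone shown because 5 or more fish had a value at 4 days alone lies below the line by that rule.

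The spread within a group was larger at 36 days, where 2 fish stood apart. The SD of log2 values within a group had a median of 0.24 at 36 days and 0.18 at 4 days over the 1778 clones, and was larger at 36 days for 1248 of them. The SD of the log2 difference between a fish and the mean of the others of its group, over 870 clones, was 0.51 for fish 3 and 0.39 for fish 6 of 36 days, 0.22 to 0.29 for the other 7 fish at 36 days and 0.18 to 0.31 at 4 days. Higher and lower clones were found at all signal levels, but higher clones were more frequent among the brighter ones, and lower clones were not. Of the 445 dimmest clones 54 were higher and 88 lower, and of the 445 brightest 134 were higher and 88 lower.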

How the data were processed

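Muscle RNA of 43 trout was hybridised singly to nylon arrays. The deposited values are linear intensities: the authors excluded spots on which the vector oligonucleotide gave under 3 times the background, scaled each cDNA signal to that oligonucleotide, and set the array median to a common level. The median of the listed values was 2.04 to 3.63 per array, so the spots behind that median are not known. Of 9216 rows, 193 control rows were left out. Empty cells and zeros (4168 in the 18 fish) were taken as missing, log2 was taken of the deposited intensities without further scaling, and each of the 43 samples was grouped by its title.

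Log2 values were fitted in limma 3.58.1 (R 4.3.3, statmod 1.5.0) with 1 mean per group over all 43 fish, and the coefficient of 36 minus 4 days was tested with Benjamini-Hochberg adjustment at 0.05, with 0.0001 given beside it. The fit was tested on simulated data. Python 3.11.15, numpy 2.4.6, scipy 1.17.1, pandas 2.3.3 and matplotlib 3.10.9 served for the other steps. Up to 5 clones per gene list and direction, those with the largest change among the called ones, were described, with clones of the same gene, complex or pair beside them and at most 2 unnamed clones per direction. Other clones given by value were chosen after their values were seen. Names were read from pictures, and 290 of 291 labels were found in the table. The members and the gene lists were chosen with earlier results of these data known. Alternatives were another threshold, SAM (significance analysis of microarrays), other scaling, transformation, filters and weights, the replicate number as a block, and leaving out each fish. The limma p-values measure the spread between fish within groups, pooled over all groups of the series. Each fish was sampled once on 1 array, so variation between fish and between arrays cannot be told apart.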

Additional observations from a re-analysis of the deposited data

Results flagged for a closer look

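Among 86 groups of values checked for the clones described in full, 6 held a fish whose gap to the nearest other fish of its group was large for the range, where chance gives about 4.3. Fish 3 of the 36-day group accounted for 3 of them. It had the lowest value for Fragile X mental retardation syndrome-related protein 2 (2.26, the other fish at 3.46 to 5.33) and for 40S ribosomal protein S19 (7.02, the others at 9.74 to 13.5). The same held for elongation factor 1-alpha, oocyte form (0.838, the others at 1.31 to 1.54). Without that fish the log2 differences were -0.62 (adjusted p = 3.73e-05), -0.24 (adjusted p = 0.0203) and -0.26 (adjusted p = 0.121 by limma), so that only the call for elongation factor 1-alpha was lost.

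Single fish of other numbers stood out for 3 further groups. Fish 10 at 36 days was high for eIF5, at 2.07 against 1.41 to 1.60, and without it the log2 difference was -0.79 (adjusted p = 2.81e-09). Fish 10 at 4 days was high for 40S ribosomal protein S19, at 16.7 against 13.2 to 14.2 (-0.29 without it, adjusted p = 0.0165), and fish 7 at 4 days was low for eIF3 subunit 4, at 1.98 against 2.36 to 2.65 (-0.59 without it, adjusted p = 8.74e-06 by limma).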

How the results depend on the processing

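No called clone with a gene name changed its direction under the alternatives run. Against 671 calls, 342 higher and 329 lower, there were 70 (32 and 38) at an adjusted p under 0.0001, 407 (223 and 184) in a fit of the 870 clones with a value in all 18 fish, and 285 (182 and 103) under SAM with 0.01% false discoveries. SAM at 5% gave 522 lower clones. Quantile normalization of whole arrays gave 92 higher clones, 12 of them named. Leaving out the 2 arrays per group with the fewest values gave 223 higher clones of the 1687 then tested. Quantile normalization over the tested clones alone, chosen after seeing the data, gave 291 higher and 336 lower. Against 67 named calls, 25 higher and 42 lower, there were 17 (7 and 10) at 0.0001, 41 (21 lower) under SAM at 0.01%, 30 (12 lower) with a value in all 18 fish, and 43 (21 lower) with the dimmest 25% of clones left out, fewer named clones being tested in the last pair. Leaving out each fish in turn left 1673 to 1764 clones to be tested. It gave 582 to 678 calls, 291 to 360 higher and 266 to 332 lower. Among named clones these counts were 60 to 68, 22 to 28 and 36 to 43. The replicate number as a block gave 674 calls (347 and 327) and 68 named calls. Same-numbered fish correlated at -0.25 to 0.28 (median -0.00) and 1 of 9 best with its own number, so the numbers were not taken as pairing. With at most 1 or 2 fish in the poorer group instead of 0, 126 or 226 clones instead of 50 had values in 1 group only. Counting zeros as values put the difference in values per array at -248 instead of -213 (exact permutation test, p = 0.155).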
